A study of Mus musculus with 8 samples.

Results

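DNA methyltransferases, TET dioxygenases and members of the Polycomb system set and remove 2 kinds of repressive mark on chromatin. The 10 genes described here are the methyltransferases Dnmt1, Dnmt3a and Dnmt3b, the dioxygenases Tet1, Tet2 and Tet3, the Polycomb genes Ezh2, Bmi1 and Asxl1, and the demethylase Kdm6b. They were taken by symbol from 23284 gene symbols, and each symbol was found in all 8 libraries. None of the 10 passed the limma test in any of the 5 comparisons, in which between 0.0168% and 0.268% of the 11931 genes tested did. Kdm6b was the 1 regulator whose 4 treated libraries all lay above all 4 control libraries, at 2.69 to 3.16 against 1.26 to 2.13 FPKM (a level per length of transcript and per size of library). Such a lack of overlap, in either direction, was found for 6.39% of all genes tested.

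DNA methylation at CpG dinucleotides is laid down by DNMT3A and DNMT3B and copied to the daughter strand at replication by DNMT1, while TET enzymes oxidise methylcytosine and so open the way to its loss. Polycomb repressive complex 2 (PRC2) methylates lysine 27 of histone H3 through EZH2 or EZH1, PRC1 ubiquitinates histone H2A, the PR-DUB complex with ASXL proteins removes that ubiquitin, and KDM6B removes methyl groups from lysine 27. In the blood system DNMT3A, TET2 and ASXL1 are the genes best known from clonal haematopoiesis, and BMI1 is required for haematopoietic stem cells to renew themselves.

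The libraries came from C57BL/6 male mice of 12 to 13 weeks that were fasted for over 14 hours before each intravenous injection and injected on 7 days, and marrow was taken on day 8. The glucose group (2 libraries) received glucose at 2 g/kg. The glucose with lipid group (2 libraries) received glucose at 2 g/kg with Intralipid 20%, a fat emulsion, at 6 ml/kg. Controls received phosphate-buffered saline (PBS). They carry the letters H and I (PBS replicates 1 and 2, written PBS H/I) or J and K (PBS replicates 3 and 4, written PBS J/K), and all 4 groups shared strain, sex, fasting and schedule. Each extract came from about 10000 sorted Lineage- Sca-1+ c-Kit+ (LSK) cells, a gate that takes stem cells of the blood system together with their multipotent progeny. Libraries are labelled as biological replicates, but the labels do not say whether each is 1 mouse or a pool, so p-values measure the spread between these libraries. PBS J/K were read against glucose and PBS H/I against glucose with lipid. That assignment is an inference from letters and tags in the sample names.

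The LSK identity was checked against marker genes. Kit lay between 164 and 198 FPKM and Ly6a, which encodes Sca-1, between 295 and 424 FPKM in the 8 libraries. Glucose with lipid replicate 1 stood apart. There 9 neutrophil markers summed to 65741 FPKM, and to between 245 and 608 FPKM in the other 7 libraries. The 10 macrophage markers summed to 4900 FPKM there against 417 to 545, most of it from Lyz2 at 4622 against 344 to 481 FPKM. B and plasma cell markers (9 genes) summed to 196 FPKM there and to 41.3 to 72.6 FPKM elsewhere, with Cd79b at 33.2 to 72.9 FPKM in every library and Igj at up to 23.7 FPKM outside that library, while Pax5 and Ebf1 were at 0 in 7 and 6 libraries. T and NK cell markers (11 genes) summed to between 369.8 and 499.7 FPKM, most of it from Nkg7 at 325 to 467 FPKM, and Cd3e stayed below 1 FPKM outside that library. Erythroid markers (10 genes) summed to 3330 and 2362 FPKM in glucose with lipid and to 1159 to 1723 FPKM elsewhere. Of these, Car2 alone was at 750 to 1162 FPKM over the 8 libraries. Depth was estimated at 5.88 M to 8.66 M fragments per library, where M stands for mega. The commonest low product of FPKM and transcript length was assumed to be 1 fragment. These are bulk samples of sorted cells, so fewer cells of a type and less RNA per cell cannot be told apart.

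The 10 regulators spanned a wide range of levels, given here per length. Dnmt1 was highest, with a mean of 109.5 FPKM over the 8 libraries, above 91.4% of the 11931 genes tested. Ezh2 followed at 71.5 FPKM, Dnmt3b at 54.5 FPKM and Bmi1 at 24.6 FPKM. Dnmt3a stood at 9.90 FPKM. The ranges of neighbours in this part of the order did not overlap, from Dnmt1 down to Dnmt3a. Below it came Asxl1 at 6.93 FPKM, Tet3 at 5.83 FPKM, Tet1 at 5.47 FPKM and Tet2 at 3.73 FPKM. Kdm6b was lowest at 2.24 FPKM, above 12.3% of the genes tested. In the lower part the ranges of neighbours overlapped. Dnmt3a exceeded Asxl1 in 8 of 8 libraries, Asxl1 exceeded Tet3 in 7, Tet3 exceeded Tet1 in 6, and Tet1 exceeded Tet2 and Tet2 exceeded Kdm6b in 8 of 8.

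**Figure D1:**
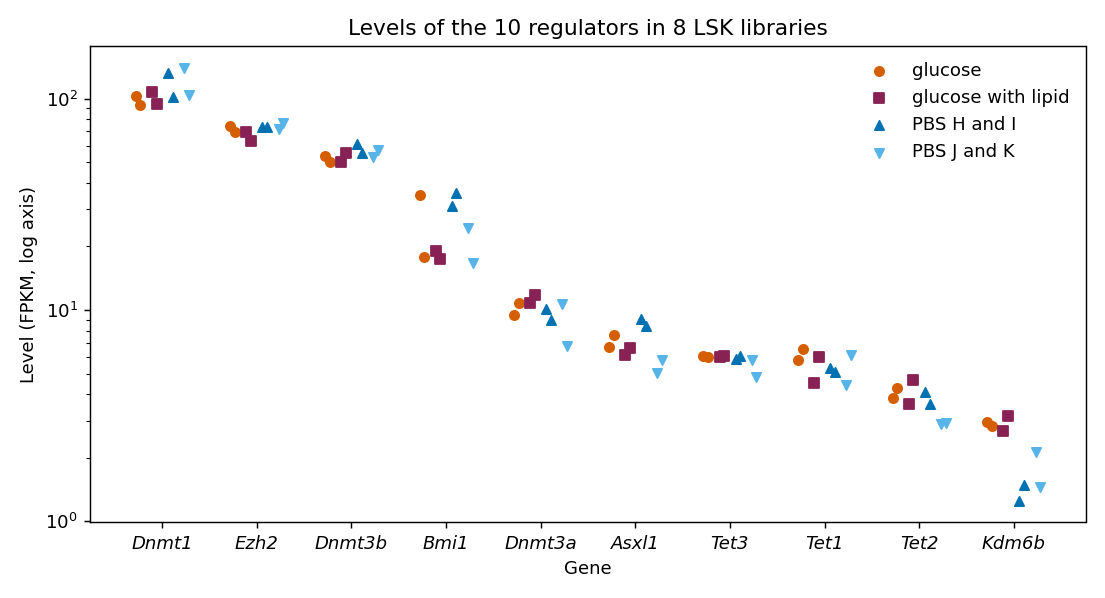
Level of each regulator in each of the 8 libraries (FPKM, log axis), with genes ordered by mean level and 1 point per library. Dnmt1, Ezh2 and Dnmt3b lie above 49 FPKM in every library, and the Kdm6b points of the treated libraries lie above those of all PBS libraries.

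The spread between libraries was uneven among the members. Ezh2, Dnmt3b and Tet3 had coefficients of variation over the 8 libraries of 5.67%, 6.75% and 7.38%. Tet1, Dnmt3a, Dnmt1, Tet2 and Asxl1 lay between 13.9% and 19.5%. Bmi1 at 33.1% and Kdm6b at 33.8% varied most. For Kdm6b the treated and control libraries separated, whereas for Bmi1 the spread ran within the glucose group and between the PBS pairs. Exon bases are shared with genes on the opposite strand by 5 of the 10, among them Ezh2 (174 bases with Gm26625), Dnmt3a (133 with Dnmt3aos) and Tet2 (43 with Gm42567), whose own values were not used here, so reads there are uncertain.

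All 5 comparisons were tested with limma on log2(FPKM + 1), a scale on which the differences of low genes such as Kdm6b and Tet2 are understated, with Benjamini-Hochberg adjustment over all 11931 genes. The share of all genes with an adjusted p under 0.05 was 0.101% for glucose against PBS J/K, 0.0754% for glucose with lipid against PBS H/I, 0.268% for all 4 treated against all 4 PBS libraries, 0.0168% for the difference between the effects of glucose with lipid and glucose, and 0.0503% for PBS H/I against PBS J/K. Of the 10 regulators, 0 passed in each comparison by limma. At an unadjusted p under 0.05 the counts of regulators were 0, 3, 1, 2 and 1 in that order, beside 1772, 1407, 1360, 1456 and 2058 of all genes. The median log2 difference of the regulators was 0.21, -0.07, 0.03, -0.12 and 0.11, and that of all genes lay between -0.0070 and 0.031. The number of all genes past the threshold depended on single libraries. For all treated libraries it was 32, and 8 without glucose replicate 2. For glucose with lipid it was 9. Leaving out replicate 2 there leaves only replicate 1, which holds the neutrophil RNA, so no count is given for that fit. Without glucose with lipid replicate 1, the library with neutrophil RNA, the log2 differences of that group were 0.81 for Kdm6b (limma adjusted p = 0.393), -0.88 for Bmi1 (limma adjusted p = 0.451), -0.35 for Asxl1 (limma adjusted p = 0.58), 0.23 for Tet2 and 0.17 for Tet1.

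**Figure D2:**
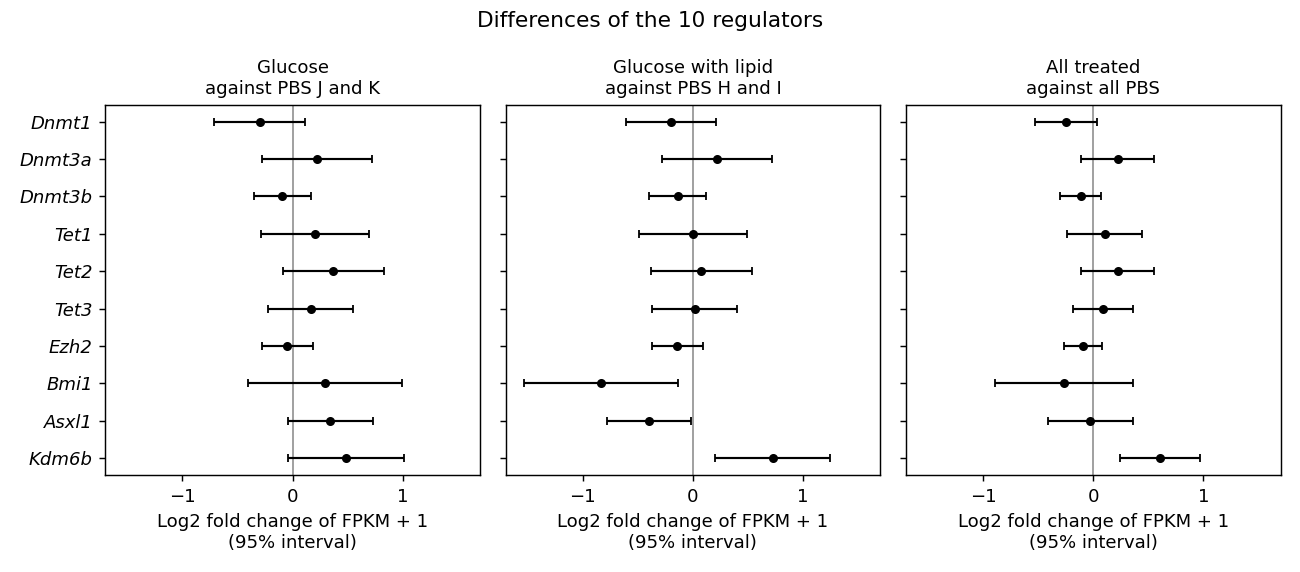
Log2 difference of FPKM + 1 for each regulator in 3 comparisons, with points for the estimate and bars for the 95% interval from limma, unadjusted. In the comparison of all treated with all PBS libraries the interval of Kdm6b, 0.24 to 0.97, does not include 0, and those of the other 9 regulators do.

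Dnmt1, the maintenance methyltransferase (GRCm38 chr9:20907209-20959888, minus strand), was at 103 and 93.5 FPKM in the glucose libraries and at 108 and 94.3 FPKM in those of glucose with lipid. PBS H/I had 132 and 101 FPKM, and PBS J/K had 140.2 and 104 FPKM. Each PBS pair thus held 1 library well above all treated libraries and 1 close to them. The log2 difference was -0.30 ± 0.18 (SE, n = 2 per group; limma adjusted p = 0.476) for glucose and -0.20 ± 0.18 (limma adjusted p = 0.705) for glucose with lipid. Over all treated against all PBS libraries it was -0.25 ± 0.12 (n = 4 per group; limma adjusted p = 0.473), with a 95% interval from -0.53 to 0.03.

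Uhrf1, which recruits DNMT1 to newly replicated DNA, was among the 3 genes whose levels were most like those of Dnmt1, with a Pearson correlation of 0.969 over the 8 libraries. The other 2 were Ube2a and Pabpc4, also at 0.969. Correlations named here are the highest of 10612 genes over 8 libraries, so high values follow in part from that choice. They describe libraries that share their groups and depths. Uhrf1 had 67.6 and 57.6 FPKM in the glucose libraries, 78.1 and 58.9 FPKM in glucose with lipid, 85.8 and 66.1 FPKM in PBS H/I, and 97.8 and 68.7 FPKM in PBS J/K. As with Dnmt1, PBS replicates 1 and 3 were highest. Its log2 difference over all treated against all PBS libraries was -0.27 (limma adjusted p = 0.523). Genes of S phase, when DNA is copied, summed over 26 genes to 3157 and 2938 FPKM in glucose, 3035 and 2936 FPKM in glucose with lipid, 3119 and 2908 FPKM in PBS H/I, and 3831 and 3390 FPKM in PBS J/K. Of the 26, 25 lay below 0 in the glucose comparison (median log2 difference -0.25) and 11 in that of glucose with lipid (median 0.015). In either, 0 passed limma, with 8 and 1 at an unadjusted p under 0.05, beside 1772 and 1407 of all 11931 genes. Between the control pairs 23 of the 26 were lower in PBS H/I than in PBS J/K (median log2 difference -0.24), so PBS J/K lay above PBS H/I as well as above glucose. Of these 26, 11 were at an unadjusted p under 0.05, beside 2058 of all 11931 genes, and 0 passed limma. The part of S phase RNA in the Dnmt1 values was not tested.

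E2F factors drive many S phase genes, and 1 of the 3 Dnmt1 start sites listed by RefSeq carried a match to an E2F motif in the 250 bases before it. The motif was searched on both strands as TTTCCCGC, TTTCGCGC, TTTGCCGC or TTTGGCGC, and 1.86% of 32851 promoter windows of the same length held it. The match lay 219 bases before the start, within an exon of another Dnmt1 transcript. It is shown as the only E2F match among the 13 windows of the 9 regulators with a RefSeq entry. The 30 bases around it are RefSeq sequence of build GRCm38.p6 on the minus strand (chr9:20952824-20952853), with the motif in capitals as it reads on the printed strand.
Dnmt1: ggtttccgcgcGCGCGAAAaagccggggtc

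The de novo methyltransferases differed in level and in spread. Dnmt3a (GRCm38 chr12:3806007-3914443, plus strand) had 9.46 and 10.8 FPKM in glucose, 10.8 and 11.7 FPKM in glucose with lipid, 10.1 and 8.97 FPKM in PBS H/I, and 10.7 and 6.72 FPKM in PBS J/K. PBS replicate 4 was the low library, and the other 7 lay within 8.97 to 11.7 FPKM. The log2 difference was 0.22 ± 0.21 (SE; limma adjusted p = 0.662) for glucose, and -0.08 without PBS replicate 4. It was also 0.22 ± 0.21 (limma adjusted p = 0.729) for glucose with lipid. Dnmt3b (GRCm38 chr2:153649450-153687730, plus strand) had 53.7 and 49.98 FPKM in glucose, 50.1 and 55.3 FPKM in glucose with lipid, 61.1 and 55.3 FPKM in PBS H/I, and 53.1 and 57.5 FPKM in PBS J/K. Treated and control ranges overlapped, and the log2 difference over all treated against all PBS libraries was -0.12 (95% interval -0.30 to 0.07; limma adjusted p = 0.597). Dnmt3b exceeded Dnmt3a by 4.64 to 8.55 times per length, with a median of 5.32 times. The highest ratio was that of PBS replicate 4, the library with the lowest Dnmt3a.

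The TET genes were low and of similar level. Tet1 (GRCm38 chr10:62804570-62908996, minus strand) ranged from 4.52 to 6.52 FPKM in the treated and from 4.43 to 6.11 FPKM in the PBS libraries. Its log2 difference was 0.20 ± 0.21 (limma adjusted p = 0.684) for glucose and -6.0e-05 ± 0.21 (limma adjusted p = 1) for glucose with lipid. Tet3 (GRCm38 chr6:83362373-83459084, minus strand) had 5.98 to 6.07 FPKM in the treated libraries, a spread of 0.0502 (SD, n = 4), and 4.80 to 6.08 FPKM in the PBS libraries. PBS replicate 4 was again the lowest. The 3 TET genes summed to between 13.1 and 16.8 FPKM per library.

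Tet2 (GRCm38 chr3:133463679-133545139, minus strand), which restrains self-renewal of blood stem cells, had 3.84 and 4.26 FPKM in glucose and 3.60 and 4.67 FPKM in glucose with lipid. PBS H/I had 4.09 and 3.60 FPKM, while PBS J/K had 2.88 and 2.93 FPKM. The low libraries were thus PBS J/K, and PBS H/I lay within the treated range. The log2 difference was 0.37 ± 0.20 (limma adjusted p = 0.427) for glucose against PBS J/K, and 0.06 against PBS H/I. It was 0.08 ± 0.20 (limma adjusted p = 0.918) for glucose with lipid against PBS H/I, and 0.39 against PBS J/K. Which control pair was used moved both values by more than 1.5 times.

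Ezh2, the main methyltransferase of PRC2 in dividing cells (GRCm38 chr6:47530139-47595341, minus strand), was the steadiest of the 10. It had 74.1 and 69.4 FPKM in glucose, 69.9 and 63.2 FPKM in glucose with lipid, 73.2 and 73.5 FPKM in PBS H/I, and 71.7 and 76.6 FPKM in PBS J/K. Glucose with lipid replicate 2 was the lowest library. The log2 difference was -0.05 ± 0.10 (95% interval -0.28 to 0.19; limma adjusted p = 0.865) for glucose and -0.14 ± 0.10 (95% interval -0.37 to 0.09; limma adjusted p = 0.63) for glucose with lipid. Ezh1, the alternative catalytic subunit, lay between 14.2 and 19.9 FPKM, and Ezh2 exceeded it by 3.49 to 5.07 times per length.

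Bmi1, a subunit of PRC1 (GRCm38 chr2:18677018-18686629, plus strand), had 35.2 and 17.8 FPKM in glucose, 18.9 and 17.5 FPKM in glucose with lipid, 30.9 and 35.7 FPKM in PBS H/I, and 24.4 and 16.7 FPKM in PBS J/K. Glucose replicate 1 and both PBS H/I libraries lay above 30 FPKM, and the other 5 lay below 25 FPKM. Against PBS H/I the glucose with lipid libraries were lower by a log2 difference of -0.83 ± 0.30 (SE; unadjusted p = 0.0253, limma adjusted p = 0.355), with no overlap. Against PBS J/K the same libraries differed by -0.14 (limma adjusted p = 0.843). For glucose the difference was 0.30 ± 0.30 (limma adjusted p = 0.682) against PBS J/K, -0.39 against PBS H/I, and -0.18 without glucose replicate 1. The genes most like Bmi1 over the 8 libraries were Wdr44, Gtf2a2 and Vbp1, with Pearson correlations of 0.987, 0.984 and 0.983.

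Asxl1, a subunit of PR-DUB (GRCm38 chr2:153345829-153404007, plus strand), had the smallest p of the 10 between the PBS pairs. It had 6.68 and 7.62 FPKM in glucose and 6.14 and 6.65 FPKM in glucose with lipid, while PBS H/I had 9.03 and 8.44 FPKM and PBS J/K had 5.05 and 5.79 FPKM. All 4 treated libraries lay between the PBS pairs. The log2 difference was 0.34 ± 0.17 (limma adjusted p = 0.385) for glucose and -0.40 ± 0.17 (unadjusted p = 0.0443, limma adjusted p = 0.408) for glucose with lipid. The difference between these effects was -0.74 ± 0.23 (unadjusted p = 0.0139, limma adjusted p = 0.33). With the control pairs exchanged the signs turned, to -0.26 for glucose and 0.20 for glucose with lipid. Over all treated against all PBS libraries the log2 difference was -0.03 ± 0.17 (limma adjusted p = 0.968). Asxl1 shares 197 exon bases with 2500004C02Rik on the opposite strand, no source used here states that counting used strand, and that gene was also highest in PBS H/I, at 8.05 and 7.56 FPKM against 3.03 to 6.45 FPKM elsewhere.

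Both PBS pairs received the vehicle alone, so their difference gives a background for Bmi1, Asxl1 and Tet2. PBS H/I exceeded PBS J/K by a log2 difference of 0.60 ± 0.17 for Asxl1 (unadjusted p = 0.00703, limma adjusted p = 0.163), 0.69 ± 0.30 for Bmi1 (limma adjusted p = 0.295) and 0.31 ± 0.20 for Tet2 (limma adjusted p = 0.483). The PBS pairs did not overlap for 4 of the 10 regulators, Asxl1, Bmi1, Tet2 and Tet3, all higher in PBS H/I, against 49.7% of all genes. Mast cell and basophil markers summed over 6 genes to 139 and 142 FPKM in PBS H/I, to 63.4 and 18.6 FPKM in PBS J/K, to 271 FPKM in glucose with lipid replicate 1 and to 23.5 to 28.9 FPKM in the other 3 treated libraries. These sums differed in makeup. In PBS H/I Cpa3 was at 96.2 and 93.2 FPKM and Prss34 at 0.28 and 0.14 FPKM. In glucose with lipid replicate 1 Cpa3 was at 35.7 FPKM and Prss34 at 140 FPKM. The part of these markers in the Bmi1 and Asxl1 values was not tested.

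**Figure D3:**
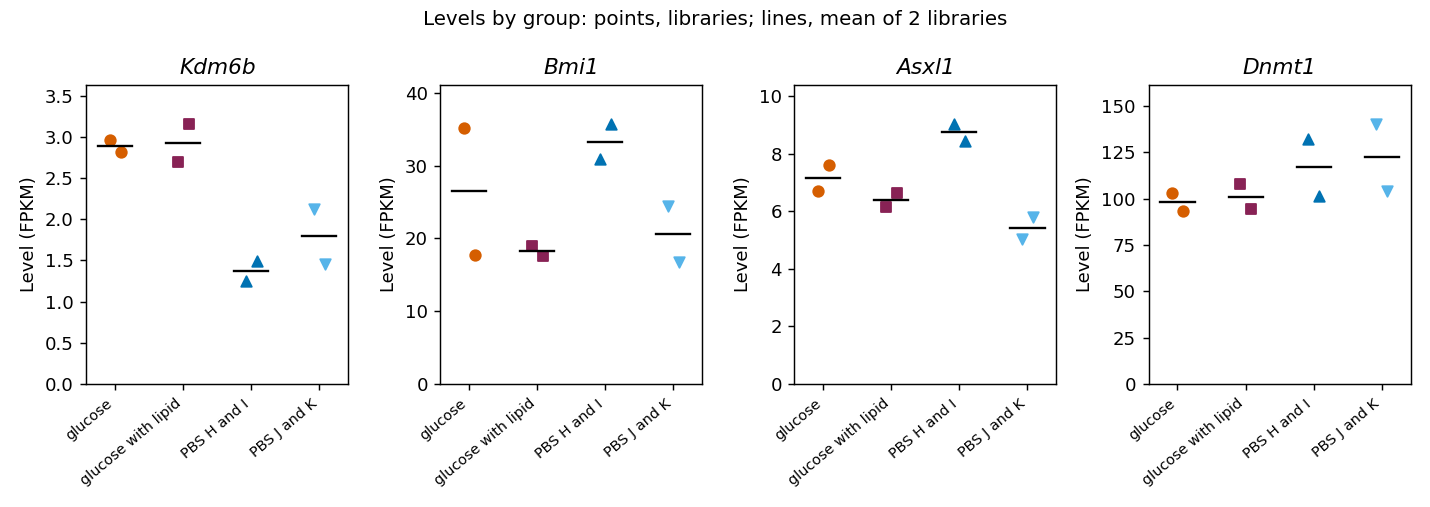
Level (FPKM) of Kdm6b, Bmi1, Asxl1 and Dnmt1 in the 4 groups, with points for libraries and lines for the mean of 2 libraries. Kdm6b separates treated from PBS libraries, whereas Asxl1 in the treated libraries lies between the PBS pairs and Bmi1 is high in PBS H/I and in 1 glucose library.

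The start regions of Bmi1 and Asxl1 are shown because both genes stood higher in PBS H/I than in PBS J/K. Capitals mark GC boxes, searched as GGGCGG on both strands, and some of those of Bmi1 overlap. Such a match occurred in 32.7% of all promoter windows. The Bmi1 window (chr2:18676768-18677017, plus strand) held 6 matches and 21 CpG dinucleotides, and the Asxl1 window (chr2:153345580-153345829, plus strand) held 2 matches and 11 CpG dinucleotides, beside a median of 6 CpG dinucleotides over all windows. The Asxl1 window also contains an exon of 2500004C02Rik. Both are RefSeq sequences of build GRCm38.p6 and cover the 250 bases before the start.
Bmi1: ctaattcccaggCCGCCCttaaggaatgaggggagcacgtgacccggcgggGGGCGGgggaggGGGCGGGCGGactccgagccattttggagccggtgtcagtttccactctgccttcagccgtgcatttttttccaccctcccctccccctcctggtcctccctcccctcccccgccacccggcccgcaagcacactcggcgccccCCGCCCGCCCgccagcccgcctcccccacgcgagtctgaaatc
Asxl1: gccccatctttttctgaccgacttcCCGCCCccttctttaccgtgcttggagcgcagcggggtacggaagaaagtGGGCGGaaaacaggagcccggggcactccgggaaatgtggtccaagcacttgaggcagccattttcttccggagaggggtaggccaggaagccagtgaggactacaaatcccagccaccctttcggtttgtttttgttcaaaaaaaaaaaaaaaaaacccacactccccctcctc

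The remaining 3 motifs were searched on both strands in the same windows. CCAAT was found in 33.8% of all windows, the cyclic AMP response element TGACGTCA in 1.55% and the AP-1 site TGAGTCA in 4.46%. Among the regulators CCAAT was matched in windows of Dnmt1, Ezh2 and Tet3, and neither of the other motifs was matched. GC boxes were matched in at least 1 window of every regulator with a RefSeq entry except Ezh2. CpG counts among the regulators ran from 2 at 1 of the Dnmt1 starts to 51 at the Tet2 start, against an upper quartile of 16 over all windows. A match describes letters and not a bound site.

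Kdm6b, which removes the mark set by PRC2 (GRCm38 chr11:69398508-69413675, minus strand), had 2.96 and 2.81 FPKM in glucose and 2.69 and 3.16 FPKM in glucose with lipid. PBS H/I had 1.26 and 1.495 FPKM, and PBS J/K had 2.13 and 1.46 FPKM. The treated mean was 2.90 ± 0.201 FPKM (SD, n = 4) and the PBS mean 1.58 ± 0.377 FPKM (SD, n = 4), with no overlap. The log2 difference was 0.49 ± 0.23 (SE; limma adjusted p = 0.367) for glucose and 0.72 ± 0.23 (unadjusted p = 0.0132, limma adjusted p = 0.312) for glucose with lipid. Over all treated against all PBS libraries it was 0.60 ± 0.16 (95% interval 0.24 to 0.97; unadjusted p = 0.00452), and the limma adjusted p of 0.27 missed the threshold. The effects of the treatments differed by 0.24 ± 0.32 (limma adjusted p = 0.79). Against the other control pair the values were 0.71 for glucose and 0.50 for glucose with lipid.

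Kdm6b was low, and its levels rested on an estimated 105 to 182 fragments in the treated and 53 to 86 in the PBS libraries. Glucose with lipid replicate 1, the library with neutrophil RNA, had the lowest Kdm6b of the 4 treated libraries, and without it the log2 difference over all treated against all PBS libraries was 0.62 (limma adjusted p = 0.266). With a pseudocount of 0.1 FPKM it was 0.86 (limma adjusted p = 0.27). Kdm6b shares 286 exon bases with the antisense gene Kdm6bos, whose values were not used here, and reads of the pair cannot be told apart without strand. Kdm6a, the related demethylase on the X chromosome, did not follow the same pattern. It had 7.61 to 11.01 FPKM in the treated and 6.82 to 14.0 FPKM in the PBS libraries, with a log2 difference of 0.04 (limma adjusted p = 0.958).

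The genes most like Kdm6b over the 8 libraries were Sh2b2, Ier2 and Arhgef10, with Pearson correlations of 0.957, 0.955 and 0.948. These too were picked as the highest of 10612. Ier2, an immediate early gene that is transcribed within minutes of a stimulus, had 510 and 518 FPKM in glucose, 490.5 and 643 FPKM in glucose with lipid, and 296 to 339 FPKM in the PBS libraries. It rose by a log2 difference of 0.80 over all treated against all PBS libraries (limma adjusted p = 0.0191). A list of 20 immediate early genes summed to 4460 to 5242 FPKM in the treated and 2167 to 2537 FPKM in the PBS libraries. Of its 19 tested genes, 18 lay above 0 and Myc below 0 in glucose, glucose with lipid and all treated libraries. At a limma adjusted p under 0.05, 10 were higher in all treated libraries, beside 0.268% of all genes in either direction. In glucose 3 were higher (beside 0.101%) and in glucose with lipid 2 (beside 0.0754%), with 0 called lower in each. Whether the immediate early RNA has a part in the Kdm6b difference was not tested.

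Groups without overlap were counted for all 10 regulators and read against all genes. For glucose against PBS J/K, 4 regulators were higher without overlap (Tet2, Tet3, Asxl1 and Kdm6b) and 1 lower (Dnmt1), beside 47.1% of all genes in either direction. For glucose with lipid against PBS H/I, 2 were higher (Dnmt3a and Kdm6b) and 3 lower (Ezh2, Bmi1 and Asxl1), beside 44% of all genes. Both shares lie near their background. Over all treated against all PBS libraries 1 of 10, Kdm6b, did not overlap, beside 6.39% of all genes.

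The wider pathways were described by lists of genes with known roles. Of 31 genes of DNA methylation and demethylation 28 were tested, of PRC2 13 of 13, of PRC1 27 of 27, of PR-DUB 10 of 11, and of lysine 27 demethylases and the opposing trithorax group 22 of 22. By limma 0 genes of these 5 lists passed in any comparison. In all treated against all PBS libraries 4, 1, 1, 0 and 3 of them had an unadjusted p under 0.05, in that order. Of all 11931 genes tested, 1360 did. The median log2 difference of the lists for glucose was 0.07, 0.13, 0.10, 0.11 and 0.20, and for glucose with lipid 0.0032, -0.06, -0.11, -0.11 and -0.02. In all treated against all PBS libraries the medians lay between -0.06 and 0.05.

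**Figure D4:**
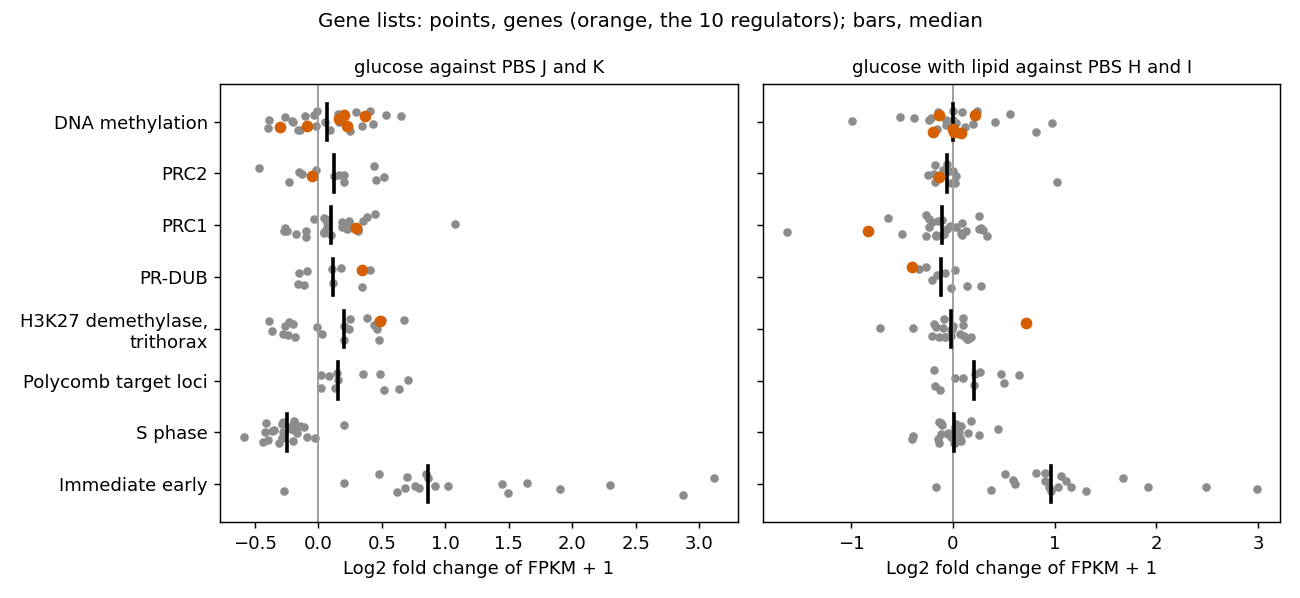
Log2 difference of FPKM + 1 of every tested gene in 8 lists, for glucose against PBS J/K and for glucose with lipid against PBS H/I, with the 10 regulators in orange and bars for list medians. The 5 chromatin lists have medians between -0.11 and 0.20, and the immediate early list has medians of 0.86 and 0.97.

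Of the list genes named by smallest p among those without overlap between the compared groups, 3 are given with their levels. The lack of overlap was thus part of the rule. Of all genes tested, 6.39% had it in all treated against all PBS libraries and 44% in glucose with lipid against PBS H/I. Phf1, a PRC2 accessory protein, had 5.36, 6.50, 8.70 and 11.3 FPKM in the treated libraries against 3.73 to 4.72 FPKM in the PBS libraries. Its log2 difference over all treated against all PBS libraries was 0.77 ± 0.16 (unadjusted p = 0.00097, limma adjusted p = 0.154). Phf1, whose longest transcript has 3142 bases, shares 1370 exon bases with Cuta on the opposite strand. Cuta had 170 to 231 FPKM in the 8 libraries, and the part of its reads in the Phf1 values was not tested. Phc2, a PRC1 subunit, had 20.0 and 11.6 FPKM in PBS H/I and 3.36 to 6.28 FPKM in the other 6 libraries. Its log2 difference was -1.63 ± 0.29 (limma adjusted p = 0.160) for glucose with lipid against PBS H/I, and 0.07 against PBS J/K. Gadd45a, a stress gene linked to DNA demethylation, had 8.66 to 23.2 FPKM in the treated and 5.77 to 7.71 FPKM in the PBS libraries, highest in glucose with lipid replicate 1 (log2 difference 0.70, limma adjusted p = 0.347). Gadd45a shares 337 exon bases with E230016M11Rik on the opposite strand. That gene had 1.06 to 1.71 FPKM in the treated and 0.10 to 0.75 FPKM in the PBS libraries, also highest in glucose with lipid replicate 1.

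The other genes named by the same rule also missed the threshold. For glucose they were Scml4, of the PRC1 list (log2 difference 1.08, limma adjusted p = 0.223), Uty, the relative of Kdm6a on the Y chromosome (0.68, limma adjusted p = 0.245), and Cxxc5, a CpG-binding protein (0.40, limma adjusted p = 0.245). Against the other control pair the glucose values were 0.19 for Scml4, -0.087 for Uty and 0.11 for Cxxc5. Yaf2, a PRC1 subunit, differed by -0.64 for glucose with lipid against PBS H/I (limma adjusted p = 0.272) and by 0.25 against PBS J/K. Mll3, now named Kmt2c and a histone methyltransferase of the trithorax group, differed by 0.30 over all treated against all PBS libraries (limma adjusted p = 0.443).

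Of 28 loci known as Polycomb targets, among them Cdkn2a, Gata4 and Pax6, 11 reached 1 FPKM in at least 2 libraries. Of all 23284 gene symbols, 11931 did. Of the 28, 6 were at 0 in all 8 libraries. The 11 were Cdkn1c and genes of the Hoxa and Hoxb clusters, led by Hoxa9, a driver of progenitor growth, with a mean of 27.7 FPKM. By limma 0 of the 11 passed in any comparison. In all treated against all PBS libraries 2 of them, Hoxa2 and Hoxa5, were at an unadjusted p under 0.05, beside 1360 of all 11931 genes. Their median log2 difference was 0.16 for glucose, 0.21 for glucose with lipid and 0.33 for PBS H/I against PBS J/K. The difference between the PBS pairs was thus the largest of these 3 medians.

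For the remaining regulators the genes of most similar pattern over the 8 libraries were as follows, with Pearson correlations as descriptions. Dnmt3a was most like Tmem86a (0.953), Pld1 (0.940) and Tob2 (0.937), and Dnmt3b most like Nek1 (0.943), Map3k10 (0.934) and Zbtb6 (0.931). Tet1 was most like Phf19 (0.959), a PRC2 accessory protein, Reps1 (0.953) and Il1r1 (0.952). Tet2 was most like Gnal (0.967), Gimap6 (0.951) and Shpk (0.951), and Tet3 most like Tra2a (0.959), Vps33b (0.956) and Phldb2 (0.950). Ezh2 was most like Mpp6 (0.956), Mterf (0.932) and the histone gene Hist1h4h (0.919). Asxl1 was most like Rmnd5a (0.981), Sik3 (0.980) and Pcmtd2 (0.969).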

How the data were processed

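Gene expression was measured by RNA sequencing of LSK cells in 8 libraries, in 4 groups of 2. Each deposited file gives 1 FPKM value per gene symbol. Headers name only the library, and the unit rests on the range of values and on Cuffnorm being named. The authors worked with Cuffnorm 2.2.1, TopHat2 2.0.13, SAMtools 1.0 and Bowtie2 2.2.3 on mm10, per the submitters' processing notes, which give no roles. For the annotation and the normalisation chosen in Cuffnorm, the choice is not given in the sources used here. Per the labels' protocols, SMART-Seq HT made the cDNA and Nextera XT the libraries.

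Of 23284 gene symbols, 11931 reached 1 FPKM in at least 2 libraries and were tested as log2(FPKM + 1) in limma 3.58.1 (R 4.3.3) with a mean-variance trend, 2-sided, with Benjamini-Hochberg adjustment at 0.05. The fit with 4 group means had 4 residual and 3.73 prior degrees of freedom. All treated against all PBS libraries was fitted with the control set as a term (5 and 3.86). The scripts were tested on simulated data. Figures and tables used matplotlib 3.10.9, pandas 2.3.3 and numpy 2.4.6 in Python 3.11.15. Fragment counts were not used here. Depth was estimated from single-transcript genes of 1500 to 8000 bases. Their commonest low product of FPKM and length was assumed to be 1 fragment, with 64 to 147 genes per library near it. Fragments per gene were estimated from its longest transcript, so both estimates are approximate.

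Positions are from GENCODE vM21 (GRCm38), for 10 of 10 regulators, and promoter sequences from RefSeq, for 9 of 10 (Kdm6b has no entry). Of the list genes, 7 were found under older symbols (such as Mll3) and Ly6g was not matched. The regulators and lists were chosen with earlier results of these data known. Named were the 10 regulators, and in each of the first 3 comparisons the 3 list genes with the smallest p among those with a mean of at least 3 FPKM and no overlap. For each regulator the 3 genes with the highest Pearson correlation were also named. Alternatives were a pseudocount of 0.1, no filter, quantile normalisation, other control sets, fits to fewer groups, a block by letter and leaving out each library.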

Additional observations from a re-analysis of the deposited data

How the results depend on the processing

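Every alternative left 0 of the 10 regulators past the threshold, with a lowest limma adjusted p of 0.158 over 630 recomputed values. Of 753 values for named genes, 713 kept their direction and side and 40 changed sign; the cause was not tested. With quantile normalisation the signs turned for Ezh2 (0.046) in glucose, Tet3 (-0.035) in glucose with lipid, Dnmt1 (-0.070) and Dnmt3a (0.056) in the difference of effects, and Dnmt1 (0.096) and Ezh2 (0.099) between the PBS pairs. With a pseudocount of 0.1 Tet1 between the PBS pairs was 0.00042. With the control pairs exchanged, glucose gave -0.39 for Bmi1, -0.26 for Asxl1 and -0.087 for Uty, and glucose with lipid gave 0.20 for Asxl1, 0.074 for Phc2 and 0.25 for Yaf2. With all 4 PBS libraries Bmi1 in glucose was -0.048.

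Leaving out 1 library gave log2 differences in glucose of -0.18 to 0.77 for Bmi1 and -0.075 to 0.52 for Dnmt3a. In glucose with lipid it gave -0.17 to 0.17 for Tet1, -0.074 to 0.23 for Tet2 and -0.0097 to 0.040 for Tet3, and over all treated libraries -0.13 to 0.067 for Asxl1. In the difference of effects it gave -0.12 to 0.022 for Dnmt3b, -0.30 to 0.30 for Dnmt3a and -0.11 to 0.31 for Dnmt1. Between the PBS pairs it gave -0.27 to 0.15 for Dnmt1, -0.20 to 0.19 for Tet1, -0.15 to 0.44 for Dnmt3a and -0.061 to 0.032 for Ezh2. A group left with 1 library was assumed to vary like the others.

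The number of all genes past the threshold went from 12 to 8 to 32 in glucose on leaving out 1 library, from 9 to 3 to 271 in glucose with lipid, from 32 to 8 to 33 over all treated libraries, from 2 to 2 to 141 in the difference of effects and from 6 to 3 to 15 between the PBS pairs. It was 19 in glucose with a pseudocount of 0.1. Without the filter it was 3 in glucose with lipid, 17 over all treated libraries and 2 between the PBS pairs. In glucose with lipid it was 28 with the control pairs exchanged, 29 with all 4 PBS libraries and 4 in a fit of only the groups compared.

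Glucose with lipid and its PBS pair carry the same letters. Over genes, the difference between the 2 glucose with lipid libraries correlated at 0.066 with that between PBS H and PBS I. This is 1 pair of differences, and 1 side of it holds the library with neutrophil RNA. It therefore cannot decide whether same-letter libraries share more than a letter. With the letter as a replicate block 11 genes passed in glucose with lipid, beside 9 without it, and 0 regulators. Groups of 2 libraries and the unknown fragment counts limit precision. The unadjusted 95% half-widths of the regulators ran from 0.17 to 0.70 on the log2 scale in the 4 comparisons between groups. Differences within such intervals were not detectable here. Some beyond them also missed the adjusted threshold, such as -0.83 for Bmi1 in glucose with lipid against PBS H/I (limma adjusted p = 0.355).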
